A study of Rattus norvegicus with 3 samples.

Results

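The genes described here encode the contractile apparatus of smooth muscle cells and pericytes, measured in cultured rat tendon stem/progenitor cells (TSPCs). The members are *Acta2*, *Tagln*, *Cnn1*, *Myh11*, *Myl9*, *Tpm1*, *Tpm2*, *Actg2*, *Pdlim3* and *Des*, chosen by gene symbol. All 10 were found, in 18 of 31042 probe sets of the array and among 14216 genes with a symbol of their own. A probe set is a group of short probes for the same transcript. Another 5 probe sets name *Acta2* together with a second actin gene and were not used. TSPCs were grown from the Achilles tendon of rats at post-natal day 1 (TSPCs-1d), day 7 (TSPCs-7d) and day 56 (TSPCs-56d), with the tendons of at least 2 animals pooled for each culture. The cells were of polyclonal origin, untreated, kept in low glucose DMEM with fetal bovine serum, and their RNA was taken at passage 2. Each age has a single array, 3 in all. Differences between ages were therefore neither replicated nor tested, and age and culture cannot be told apart.

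In smooth muscle, force comes from filaments of myosin that pull on filaments of alpha- and gamma-actin. Phosphorylation of the myosin regulatory light chain by myosin light chain kinase starts the contraction, and tropomyosin, calponin and transgelin lie along the actin filament. Many of these genes are switched on by serum response factor (SRF) and its cofactor myocardin, which act through a DNA element called the CArG box. Pericytes, the mural cells of small vessels, carry part of the same set, and fibroblasts in culture are known to make several of these proteins as they build stress fibres.

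The promoter of *Acta2* (smooth muscle alpha-actin) is shown because it holds 2 elements close to a CArG box, the site through which the group is known to be controlled together. It is the RefSeq sequence of assembly GRCr8, chr1:241172454-241172753 on the minus strand, from 250 bases before the start of the gene to 50 bases after it. Capitals mark matches to a CArG box that has at most 1 G or C among its 6 middle bases.

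Acta2: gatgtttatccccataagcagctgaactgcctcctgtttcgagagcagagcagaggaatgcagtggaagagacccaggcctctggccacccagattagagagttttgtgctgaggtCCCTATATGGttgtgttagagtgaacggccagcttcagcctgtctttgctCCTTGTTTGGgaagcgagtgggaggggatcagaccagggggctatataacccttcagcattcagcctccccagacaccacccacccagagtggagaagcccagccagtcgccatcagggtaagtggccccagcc

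The first match begins 134 bases and the second 84 bases before the start. The element reads alike on both strands, so a search of either strand finds the same matches. Of 33469 promoters of this length, 9.42% held at least 1 such match, 0.846% at least 2, and 1.64% a CArG box with no G or C in its middle. The table covered 6 of the 10 members (*Acta2*, *Cnn1*, *Tpm1*, *Tpm2*, *Actg2* and *Des*). None of the 6 held a CArG box without G or C in this window, and *Acta2* was the 1 with matches. A match of letters does not show binding, and its lack in this window says nothing of SRF.

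With each gene read from its probe set of the highest mean signal, the contractile genes had their lowest signals in TSPCs-7d. In TSPCs-7d vs. TSPCs-1d the ratio was below 1 for 10 of 10 genes, against 47.6% of all 14216 genes, with a median log2 ratio of -0.38 (0.01 over all genes). In TSPCs-56d vs. TSPCs-7d it was above 1 for 10 of 10 genes, against 56.6% of all genes, with a median of 0.47 (0.05 over all genes). Both comparisons use the same TSPCs-7d array. TSPCs-7d was the lowest of the 3 arrays for all 10, as for 32.6% of all genes, though *Des* is too dim for its order to be read. Over all 18 probe sets of these genes, TSPCs-7d was lowest in 13, TSPCs-56d in 4 and TSPCs-1d in 1. TSPCs-56d and TSPCs-1d differed little for most members, with a median of 0.03 (0.06 over all genes), and here *Myh11* and *Pdlim3* stood apart in opposite directions. Most of these differences were modest. The fold change cutoff of the study's methods, a ratio over 2 or under 0.5, was passed by 1 gene of 10 on the lower side in TSPCs-7d vs. TSPCs-1d (1.08% of all genes) and by 0 on the higher side (1.87%). In TSPCs-56d vs. TSPCs-1d, 1 gene passed it on the higher side (2.0%) and 1 on the lower side (1.77%), and in TSPCs-56d vs. TSPCs-7d, 1 on the higher side (1.72%) and 0 on the lower side (2.1%). In bulk RNA, fewer cells that express these genes and less RNA per cell cannot be told apart.

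**Figure D1:**
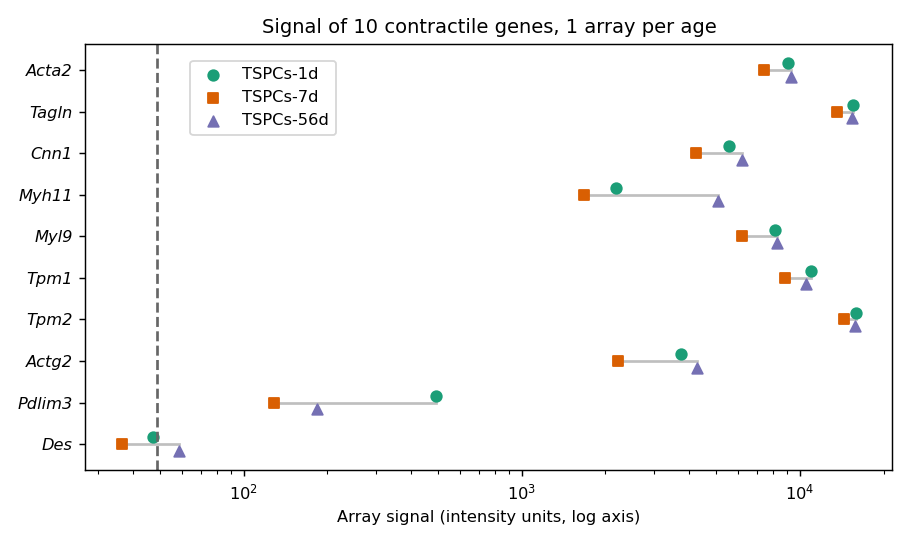
Array signal (intensity units, log axis) of the 10 genes, each by its probe set of the highest mean signal, in TSPCs-1d (circles), TSPCs-7d (squares) and TSPCs-56d (triangles), 1 array each, with a dashed line at 48.9, the 25th percentile of all signals. The square lies to the left of both other marks for each gene, and *Myh11*, *Actg2* and *Pdlim3* span the widest distances.

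As a guide to how far probe sets of the same gene differ, 1278 genes outside the group with exactly 2 probe sets were used. Both probe sets had to have a mean signal above 111.1, the median over all probe sets, so dim probe sets are not covered. Their log2 ratios differed by a median of 0.13 in TSPCs-7d vs. TSPCs-1d, 0.16 in TSPCs-56d vs. TSPCs-1d and 0.13 in TSPCs-56d vs. TSPCs-7d, and 10% of the genes differed by more than 0.38, 0.50 and 0.43. This guide compares probe sets on the same pair of arrays and holds nothing of the spread between cultures. Median signals of the arrays lay between 107 and 114, and their log2 signals correlated across probe sets with r from 0.976 to 0.985.

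The actins differed in how far they moved. *Acta2*, the smooth muscle alpha-actin, had signals of 9048 at 1 day, 7419 at 7 days and 9316 at 56 days. Its log2 ratio was -0.29 in TSPCs-7d vs. TSPCs-1d, 0.04 in TSPCs-56d vs. TSPCs-1d and 0.33 in TSPCs-56d vs. TSPCs-7d. The gene was thus bright at every age, and the 7-day value stood somewhat under the values of the other cultures. *Actg2*, the gamma-actin of visceral smooth muscle, had signals of 3742, 2219 and 4261 at 1, 7 and 56 days. Its ratio was 0.593 in TSPCs-7d vs. TSPCs-1d (log2 -0.75) and 1.92 in TSPCs-56d vs. TSPCs-7d (log2 0.94), just inside the cutoff, whereas TSPCs-56d vs. TSPCs-1d gave 1.14. Among 1435 probe sets with a mean signal over 2000, the middle 90% of log2 ratios ran from -0.46 to 0.38 in TSPCs-7d vs. TSPCs-1d and from -0.41 to 0.52 in TSPCs-56d vs. TSPCs-7d. *Actg2* lay outside both ranges and *Acta2* inside both. In TSPCs-7d vs. TSPCs-1d the other member probe sets over 2000 lay inside too. There, from 5.3% (*Tpm1* 1370288_a_at) to 26.2% (*Tpm2*) of the bright probe sets were as low or lower. In TSPCs-56d vs. TSPCs-7d, the brighter *Myh11* probe set (1.60) and *Cnn1* (0.55) also lay outside.

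*Myh11*, the heavy chain of smooth muscle myosin and a late marker of that lineage, had the largest difference toward the oldest culture. Its brighter probe set, 1370896_a_at, gave 2186 at 1 day, 1671 at 7 days and 5067 at 56 days. The signal in TSPCs-56d was 3.03-fold higher than in TSPCs-7d and exceeded that of TSPCs-1d 2.32-fold, and TSPCs-7d vs. TSPCs-1d had a ratio of 0.765. The weaker probe set, 1381219_at, had signals of 109, 152 and 198. There TSPCs-56d had 1.31 times the TSPCs-7d signal and 1.82 times the TSPCs-1d signal, and TSPCs-7d had 1.39 times that of TSPCs-1d. Both probe sets placed TSPCs-56d highest, but they disagreed on which of the younger cultures was lower, and the calls past 2-fold rest on the brighter one. Their log2 ratios differed by 1.21 in TSPCs-56d vs. TSPCs-7d and by 0.86 in TSPCs-7d vs. TSPCs-1d, more than the 0.43 and 0.38 that 10% of the 2-probe-set genes exceeded.

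The myosin light chain gene *Myl9*, whose product is the regulatory light chain that kinase activity turns on, had signals of 8153, 6186 and 8302 at 1, 7 and 56 days. The log2 ratio was -0.40 in TSPCs-7d vs. TSPCs-1d, 0.03 in TSPCs-56d vs. TSPCs-1d and 0.42 in TSPCs-56d vs. TSPCs-7d. The oldest and the youngest culture were nearly level, unlike the brighter probe set of the heavy chain gene *Myh11*.

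*Cnn1* encodes calponin, which binds along the actin filament. It had signals of 5581 at 1 day, 4226 at 7 days and 6204 at 56 days. Its log2 ratios were -0.40 (TSPCs-7d vs. TSPCs-1d), 0.15 (TSPCs-56d vs. TSPCs-1d) and 0.55 (TSPCs-56d vs. TSPCs-7d), the last just above the middle 90% of bright probe sets. *Tagln* (transgelin, an actin crosslinker also called SM22) had signals of 15531, 13601 and 15373 at 1, 7 and 56 days, with log2 ratios of -0.19, -0.01 and 0.18 in the same order of comparisons. These differences of *Tagln* are inside the range that pairs of probe sets show for the same gene. The highest signal on any array was 19315, and whether signals near it flatten was not tested.

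*Tpm1* and *Tpm2* encode the alpha and beta chains of tropomyosin, which winds along the actin filament and, through alternative splicing, exists in smooth muscle, striated muscle and non-muscle forms. The brightest probe set of *Tpm1*, 1370287_a_at, had signals of 10958 at 1 day, 8874 at 7 days and 10532 at 56 days. The next, 1370288_a_at, had 5584, 4099 and 4768. Both placed TSPCs-7d lowest and TSPCs-56d between the other cultures. Much larger differences came from 1368724_a_at, with 1026, 498 and 663, and from 1371241_x_at, with 1044, 454 and 496. In these TSPCs-7d was 2.06-fold and 2.30-fold lower than TSPCs-1d, and 1371241_x_at was also 2.10-fold lower in TSPCs-56d than in TSPCs-1d. The suffix _x_at marks probes that can also match other transcripts. The remaining 3 probe sets had signals of 121 to 964, and 1395794_at (964, 772 and 559) and 1370513_at (206, 176 and 121) descended with age.

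Over all 7 probe sets of *Tpm1* the log2 ratio of TSPCs-7d vs. TSPCs-1d ran from -1.20 to -0.23 and that of TSPCs-56d vs. TSPCs-1d from -1.07 to -0.06, below 0 in 7 of 7 each time. TSPCs-56d vs. TSPCs-7d ran from -0.53 to 0.41, with 4 above 0 and 3 below. TSPCs-1d was thus the highest culture in every probe set, by a factor that depended on the probe set. Which splice forms each one detects was not examined. *Tpm2* had signals of 15892, 14417 and 15740.2 in its brighter probe set and 355, 305 and 257 in the other, at 1, 7 and 56 days. The brighter one put TSPCs-7d lowest by a small margin (log2 ratio -0.14 vs. TSPCs-1d), and the weaker one put TSPCs-56d lowest (log2 ratio -0.47 vs. TSPCs-1d).

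**Figure D2:**
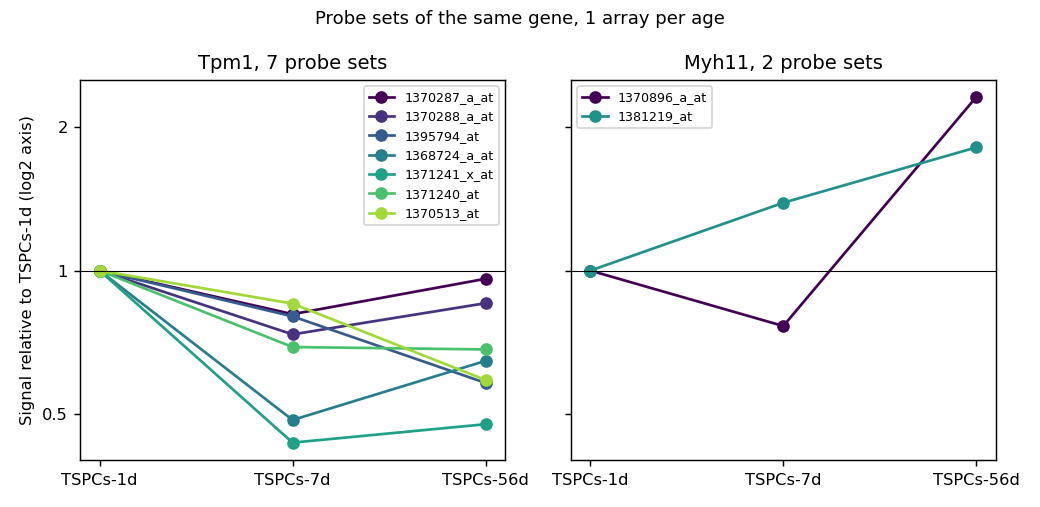
Signal of each probe set of Tpm1 (7, left) and Myh11 (2, right) relative to its own signal in TSPCs-1d (log2 axis) at the 3 ages, 1 line per probe set. All lines of Tpm1 stay below 1 and spread from 0.435 to 0.852 in TSPCs-7d, and the Myh11 lines part in TSPCs-7d (0.765 and 1.39) and both exceed 1 in TSPCs-56d.

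The sarcomere-associated members differed in how far they could be read. *Pdlim3*, which encodes the alpha-actinin-associated LIM protein of the Z-disc and of smooth muscle, had signals of 492 at 1 day, 129 at 7 days and 184 at 56 days. TSPCs-7d was 3.83-fold lower than TSPCs-1d and TSPCs-56d 2.67-fold lower, while TSPCs-56d had 1.43 times the signal of TSPCs-7d. It was the 1 member gene with a difference past 2-fold between TSPCs-7d and TSPCs-1d in its brightest probe set, and it was read from a single probe set. *Des* (desmin, the intermediate filament of muscle cells and a marker of many pericytes) had signals of 47.2, 36.6 and 58.8. The 1-day and 7-day values were under 48.9, the 25th percentile of all signals, which was taken as dim, so no difference between them could be read. With dim signals raised to that level, TSPCs-56d was at least 1.20-fold higher than either, which is small at such a level.

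Counted over all 18 probe sets instead of genes, 3 were more than 2-fold lower in TSPCs-7d than in TSPCs-1d (0.989% of all probe sets) and 0 higher (1.36%). These were the *Pdlim3* probe set and 2 of *Tpm1*. In TSPCs-56d vs. TSPCs-1d, 2 were lower (1.8%), of *Pdlim3* and *Tpm1*, and 1 was higher (1.52%), of *Myh11*. In TSPCs-56d vs. TSPCs-7d, the *Myh11* probe set was higher (1.31%) and 0 were lower (1.68%). The ratio was below 1 in 17 of 18 probe sets in TSPCs-7d vs. TSPCs-1d, against 48.9% of all, and above 1 in 14 of 18 in TSPCs-56d vs. TSPCs-7d, against 56.3%. The 4 exceptions in the comparison of TSPCs-56d with TSPCs-7d were 3 probe sets of *Tpm1* and 1 of *Tpm2*. Probe sets of the same gene are not independent, and *Tpm1* alone gives 7 of the 18. For TSPCs-56d vs. TSPCs-1d, whether a ratio near 1 falls above or below it depended on the scaling of the arrays. As deposited, 4 of 10 genes were below 1, and 6 were after median scaling. After quantile normalization 2 were below 1 and 5 above it, and *Tagln*, *Myl9* and *Tpm2* were exactly level. The counts below 1 in TSPCs-7d vs. TSPCs-1d and above 1 in TSPCs-56d vs. TSPCs-7d were 10 of 10 under these settings and under loess centring. Without probe sets shared between transcripts each count was 9 of 10, and TSPCs-7d was the lowest array for 8 of 10 genes. The log2 ratio of *Myh11* in TSPCs-7d vs. TSPCs-1d was then 0.47 instead of -0.39, and that of *Tpm1* in TSPCs-56d vs. TSPCs-7d was -0.46 instead of 0.25.

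**Figure D3:**
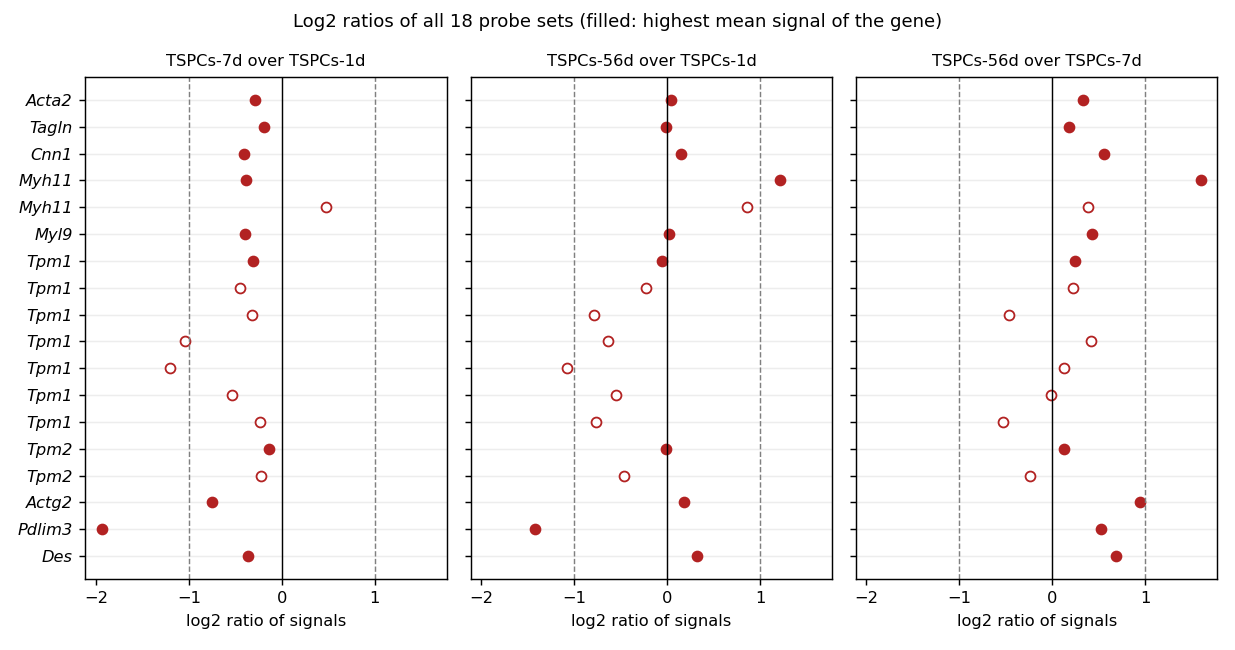
Log2 ratio of signals for each of the 18 probe sets (1 row each, labelled by gene) in the 3 comparisons, with dashed lines at 2-fold, filled points for the brightest probe set of a gene and open points for its others. For TSPCs-7d over TSPCs-1d, 17 of 18 points lie left of 0, and in TSPCs-56d over TSPCs-7d, 14 lie right of it.

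Other genes of smooth muscle contraction were read from a list of 25, of which 22 were measured. The lowest signal was in TSPCs-7d for 15 of the 22, against 32.6% of all genes. For some of the 15 the margin in log2 ratio was under 0.13, the median difference between 2 probe sets of a gene. Median log2 ratios of the 22 were -0.17 in TSPCs-7d vs. TSPCs-1d, 0.03 in TSPCs-56d vs. TSPCs-1d and 0.24 in TSPCs-56d vs. TSPCs-7d. *Mylk*, the kinase that phosphorylates the myosin light chain, had signals of 2080, 1172 and 2385 at 1, 7 and 56 days. TSPCs-56d was 2.04-fold higher than TSPCs-7d (1.73-fold in its weaker probe set), and TSPCs-7d vs. TSPCs-1d had a ratio of 0.563 (0.461 in the weaker one, past the cutoff). The probe sets disagreed on the direction of TSPCs-56d vs. TSPCs-1d, with ratios of 1.15 and 0.798. *Ldb3*, a Z-disc protein, was 2.13-fold lower in TSPCs-7d than in TSPCs-1d, with signals of 427, 200.2 and 295, and over its 6 probe sets the ratio ran from 0.225 to 0.895. *Casq2*, a calcium store protein of the sarcoplasmic reticulum, descended with age (4877, 3410 and 2117) and was 2.30-fold lower in TSPCs-56d than in TSPCs-1d. *Aoc3*, a cell surface amine oxidase of vascular smooth muscle and fat, went the other way (675, 807 and 2727). The 56-day signal was 4.04-fold the 1-day signal and 3.38-fold the 7-day signal. By the brightest probe sets, 1 of the 22 was more than 2-fold lower (1.08% of all genes) and 0 higher (1.87%) in TSPCs-7d vs. TSPCs-1d. In TSPCs-56d vs. TSPCs-1d, 1 was lower (1.77%) and 1 higher (2.0%), and in TSPCs-56d vs. TSPCs-7d, 0 were lower (2.1%) and 2 higher (1.72%).

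*Srf* and its cofactors *Myocd* and *Mrtfa*, known to drive these genes, had no ratio past 2-fold. *Srf* had signals of 1515, 1504 and 1697 at 1, 7 and 56 days. Its cofactors *Myocd* (myocardin) had 516, 403 and 485 and *Mrtfa* (myocardin-related transcription factor A) 473, 412 and 420.2. For *Myocd* the log2 ratios were -0.36, -0.09 and 0.27 in TSPCs-7d vs. TSPCs-1d, TSPCs-56d vs. TSPCs-1d and TSPCs-56d vs. TSPCs-7d. Of 11 measured regulators of 14 listed, 0 were more than 2-fold higher (1.87% of all genes) or lower (1.08%) in TSPCs-7d vs. TSPCs-1d. TSPCs-7d was the lowest array for 7 of the 11, against 32.6% of all genes. The margin was small for some of them, such as *Srf* (log2 ratio -0.01 vs. TSPCs-1d) and *Mrtfa* (0.03 in TSPCs-56d vs. TSPCs-7d). Both margins are under 0.13, the median difference between 2 probe sets of a gene. Median log2 ratios of the list were -0.19 in TSPCs-7d vs. TSPCs-1d, -0.09 in TSPCs-56d vs. TSPCs-1d and 0.12 in TSPCs-56d vs. TSPCs-7d. *Klf4*, known as a repressor of smooth muscle genes, had signals of 271, 219 and 743, so the 56-day signal was 2.74-fold the 1-day and 3.39-fold the 7-day signal, and *Foxf1*, a factor of visceral mesenchyme, had 285, 166 and 120 and was 2.38-fold lower in TSPCs-56d than in TSPCs-1d, though its other probe set gave a ratio of 1.01.

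General components of the actin cytoskeleton differed little between the arrays, as did several of the members. Of 22 genes of actin filaments and stress fibres, 18 were measured, and 0 passed 2-fold in any of the 3 comparisons. Among all genes 2.95% passed it in TSPCs-7d vs. TSPCs-1d, 3.76% in TSPCs-56d vs. TSPCs-1d and 3.81% in TSPCs-56d vs. TSPCs-7d. A count of 0 among 18 genes is near these shares. By the brightest probe sets, the medians of the 18 were -0.03, 0.11 and 0.10 in the same order, and log2 ratios lay between -0.33 and 0.41. The brightest probe sets of *Acta2*, *Tagln*, *Tpm1* and *Tpm2* lay inside that range too. TSPCs-7d was the lowest array for 8 of the 18, by small margins for some, against 32.6% of all genes. In TSPCs-56d vs. TSPCs-7d the ratio was below 1 for 4 of the 18, against 43.3% of all genes. Over all probe sets of the 18 genes, ratios ran from 0.674 to 1.46. The cytoplasmic gamma-actin gene *Actg1* had signals of 15225, 15658 and 15640. Of the 9 measured genes of the response to TGF-beta, a growth factor known to raise smooth muscle genes in fibroblasts, 0 passed 2-fold in any comparison. The same shares of all genes past 2-fold apply to this count. Medians of the 9 were 0.02, 0.10 and 0.02 in the same order.

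**Figure D4:**
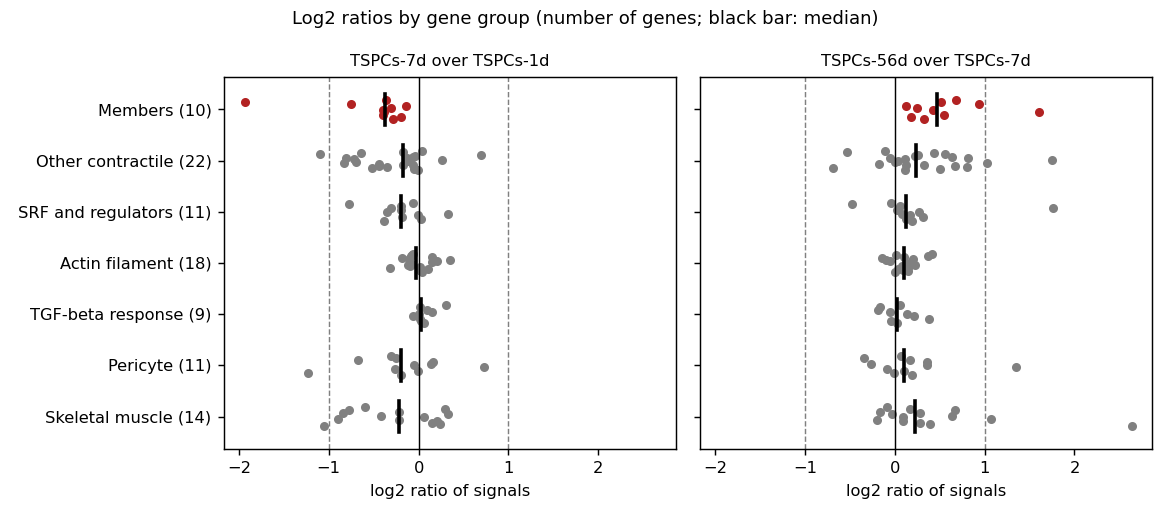
Log2 signal ratio of every gene (1 point each) among the contractile members (red) and of 6 further groups (grey) in TSPCs-7d over TSPCs-1d (left) and TSPCs-56d over TSPCs-7d (right), with a black bar at the median, dashed lines at 2-fold and the number of genes in brackets. The member median is -0.38 on the left and 0.47 on the right, and the actin filament group stays between -0.32 and 0.35 on the left and between -0.14 and 0.41 on the right.

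The labels name tendon stem/progenitor cells and no smooth muscle cells or pericytes. The contractile markers *Acta2*, *Tagln* and *Cnn1* were bright on all arrays, and *Des* was dim at 1 and 7 days. Of the pericyte markers, 11 of 14 were measured. Signals of 1464, 1280.1 and 1463 were found for *Pdgfrb*, the PDGF receptor of mural cells and fibroblasts, and 793, 659 and 622 for *Cspg4*, the NG2 proteoglycan. *Rgs5*, a regulator of G-protein signalling and a defining marker of pericytes, had 58.6, 36.6 and 41.2, dim in both older cultures. In all, 6 of the 11 were below the median of all signals, 110.1, on every array. The summed signal of the list was 5872 at 1 day, 4325 at 7 days and 4772 at 56 days. *Mcam*, an adhesion molecule of mural and endothelial cells, had signals of 2182, 929.9 and 927, and both older cultures were 2.35-fold lower than TSPCs-1d. Much of the difference between the 1-day sum and the other sums was thus that of *Mcam*. *Anpep*, a surface peptidase, had a 56-day signal 4.25-fold that of 1 day (81.3, 135 and 346).

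Several members are also muscle genes in general, so skeletal muscle markers were read alongside. Of 14 measured of 17 listed, 9 were below the median of all signals on every array. The exception at high signal was *Acta1*, the skeletal alpha-actin, with 1772 at 1 day, 855 at 7 days and 5327 at 56 days. TSPCs-7d was 2.07-fold lower than TSPCs-1d, and the 56-day signal was 3.01-fold that of TSPCs-1d and 6.23-fold that of TSPCs-7d. The order of its signals was that of *Acta2*, *Cnn1*, *Myl9*, *Actg2*, the brighter *Myh11* probe set and the dim *Des*. The summed signal of the list was 2665 at 1 day, 1711 at 7 days and 6361 at 56 days, and *Acta1* was the largest part of it on every array. Whether actin probe sets detect one another's transcripts was not tested. Endothelial markers were faint, with 6 of 8 below the median of all signals on every array and summed signals of 712, 659 and 801. The 5 blood cell markers had summed signals of 549, 511 and 629, with 2 of the 5 below that median on every array and 0 past 2-fold. Of 3 measured neural and glial markers, 0 passed 2-fold in any comparison, and their summed signals were 770.2, 809 and 1329. Most of the higher sum at 56 days came from a single marker, with signals of 530, 535 and 1000. With 2.95% to 3.81% of all genes past 2-fold in a comparison, counts of 0 in such short lists are near that share. Of 7 measured tendon markers, 3 passed 2-fold on the higher side (1.87% of all genes) and 0 on the lower (1.08%) in TSPCs-7d vs. TSPCs-1d. In TSPCs-56d vs. TSPCs-1d, 2 tendon markers passed on the higher side (2.0%) and 1 on the lower (1.77%). In TSPCs-56d vs. TSPCs-7d, 1 tendon marker passed on the higher side (1.72%) and 1 on the lower (2.1%). They did not share a pattern. *Tnmd*, the membrane protein tenomodulin, had 543, 351 and 158 at 1, 7 and 56 days, and the matrix protein genes *Thbs4* and *Fmod* had 76.5, 340 and 348, and 271, 774 and 408. *Dcn* (decorin) had 22.4, dim, then 49.4 and 607, so its 56-day signal was 12.3-fold the 7-day one and its call in TSPCs-7d vs. TSPCs-1d rests on a dim signal. The part of such cells in the member signals was not tested.

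For the 3 members with the widest span over the arrays, the genes of nearest pattern were sought among 9320 genes above the median of mean signal, by the Euclidean distance of centred log2 signals over the 3 arrays. For *Actg2* the nearest was *Bnip3*, a mitochondrial protein of mitophagy, with 1904, 1117 and 2117 at 1, 7 and 56 days (distance 0.02), followed by *Mylk* (0.06), the methionine sulfoxide reductase gene *Msrb1* (0.08) and the dystrobrevin gene *Dtna* (0.10). For *Myh11* they were *Timp3*, an inhibitor of metalloproteases, with 656, 483 and 1550.3 (0.06), *Prl8a9* (0.07), the transglutaminase gene *Tgm2* (0.09) and the metallothionein gene *Mt2A* (0.10). For *Pdlim3* they were the growth factor gene *Vegfd*, with 222, 58.7 and 93.7 (0.14), *Mgst3* (0.18), *Gdf15* (0.29) and *Crmp1* (0.30). A pattern over 3 arrays has few degrees of freedom.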

How the data were processed

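RNA of 3 TSPC cultures was hybridized to Affymetrix rat expression arrays. The methods name MAS5 as well as RMA for normalization, and only MAS5 stands in the notes of the submitters. How the authors used both is not given in the sources used here. The deposited values are intensity values on a linear scale, 1 per probe set, and no filter, floor or scaling was applied to them. The platform's table gave 1 symbol to 20826 probe sets, several to 436 and none to 9780, and all 10 member gene IDs were in the RefSeq table of GRCr8. A gene was read from its probe set of the highest mean signal, with all others given beside it. Signals of 2 ages were divided, later over earlier, and the cutoff was that of the methods, 2. With 1 array per age no test was possible, and the number of arrays limits the precision.

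The members and the 10 lists of 130 further genes were chosen with earlier results of these data known. Named genes were all members, up to 4 genes per list past 2-fold with their higher signal above the median of all signals, a few regulators and markers fixed with the lists, and the 4 nearest patterns of 3 members. Alternatives were 3 scalings, 2 floors, a pseudocount of 32, a filter at the median of mean signal, leaving out probe sets with the suffix _s_at, _x_at or _a_at, the mean over probe sets and cutoffs of 1.5 and 3. Leaving out *Tpm1* or *Pdlim3* was added after seeing the data. The code of the ratio rule was checked on simulated arrays with little noise and changes past the cutoff. That check holds nothing of the spread between cultures. Python 3.11.15, numpy 2.4.6, pandas 2.3.3, statsmodels 0.14.6 and matplotlib 3.10.9 were used.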

Additional observations from a re-analysis of the deposited data

How the results depend on the processing

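With 1 array per age, no result has an error between cultures. No paired analysis was possible because each age has a single array. The medians of the members moved by less than the usual difference between 2 probe sets of a gene under every alternative run, though that of TSPCs-56d vs. TSPCs-1d, 0.03 as deposited, was -0.06 after median scaling. Scaling, floors and the pseudocount left every count of members past 2-fold within 1.5 times. Counts were sensitive to the choice of probe sets and to the cutoff. Without probe sets shared between transcripts, 1 probe set of 13 passed 2-fold in TSPCs-7d vs. TSPCs-1d, 1 in TSPCs-56d vs. TSPCs-1d and 0 in TSPCs-56d vs. TSPCs-7d. Over genes 1 passed in TSPCs-56d vs. TSPCs-1d and 0 in TSPCs-56d vs. TSPCs-7d. The brighter *Myh11* probe set and 2 *Tpm1* probe sets past 2-fold were left out. As deposited, 2.35%, 3.32% and 2.99% of all probe sets passed in the 3 comparisons, and 3.76% and 3.81% of all genes in the last 2. Shares under this choice of probe sets were not computed. Under it the log2 ratio also turned its sign for *Myh11* in TSPCs-7d vs. TSPCs-1d (0.47) and for *Tpm1* in TSPCs-56d vs. TSPCs-7d (-0.46). At a cutoff of 1.5, 2 genes passed in TSPCs-7d vs. TSPCs-1d (8.15% of all genes), 7 probe sets in TSPCs-56d vs. TSPCs-1d (11.4% of all probe sets), and 3 probe sets (9.86%) and 3 genes (10.4%) in TSPCs-56d vs. TSPCs-7d. At a cutoff of 3, 1 probe set passed in TSPCs-7d vs. TSPCs-1d (0.512%), and 0 probe sets (1.15%) and 0 genes (1.55%) in TSPCs-56d vs. TSPCs-1d. Without *Tpm1*, 1 probe set passed 2-fold in TSPCs-7d vs. TSPCs-1d (2.35% of all probe sets). Without *Pdlim3*, 0 genes passed in TSPCs-7d vs. TSPCs-1d (2.95% of all genes) and 1 in TSPCs-56d vs. TSPCs-1d (3.76%). Signal over background limits *Des*, whose log2 ratio of TSPCs-56d vs. TSPCs-7d was 0 with signals under the median raised to it.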
